A study of Mus musculus with 10 samples.

Results

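The phagocyte NADPH oxidase was followed through 6 of its genes, Cybb, Cyba, Ncf1, Ncf4, Rac2 and Hvcn1. These were chosen by name from what their proteins do, with earlier results of these data known. They are 6 of the 49315 genes in the count tables, and all 6 passed the filter on low counts in each fit used here. RNA had been sequenced from sorted brain microglia of wild-type C57BL/6 mice, divided by surface CD11c, the integrin alpha X chain. The groups were CD11c+ and CD11c- cells at postnatal day 5 (P5, 3 libraries each) and CD11c+ and CD11c- cells at 9 months (2 libraries each). No transgene, treatment or injury is named for any group, and every group shares strain and genotype. The labels do not say whether replicates came from separate animals or pools, so p-values measure the spread between these libraries, which may be partly technical. Only the 9-month libraries went through the SMART-Seq v4 Ultra Low Input Kit, so age and kit cannot be told apart. Levels are therefore tested between subsets within an age, and are only described between ages.

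The phagocyte oxidase moves electrons from NADPH across a membrane to oxygen and makes superoxide, the start of the respiratory burst with which phagocytes kill microbes. Its core is a membrane pair, the catalytic subunit NOX2 (Cybb) and its partner p22phox (Cyba). The enzyme works only once a Rac GTPase and cytosolic proteins, among them p47phox (Ncf1) and p40phox (Ncf4), have joined it. The voltage-gated proton channel Hv1 (Hvcn1) lets protons follow the electrons and so offsets the charge that the oxidase moves. Neutrophils carry large amounts of this enzyme, and microglia and other macrophages carry it as well.

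The files place Cybb at X:9435252-9487771 on the minus strand and Cyba at 8:122424776-122432930 on the minus strand. Ncf1 lies at 5:134220053-134229625 on the minus strand, Ncf4 at 15:78244801-78262580 on the plus strand, Rac2 at 15:78559169-78572783 on the minus strand and Hvcn1 at 5:122206804-122242297 on the plus strand. The build is not given in the sources used here. The coordinates match the GRCm38 annotation GENCODE M21 at both ends for 44858 of the 49056 gene IDs that the files share with it, and for 5 of these 6 genes, Rac2 differing at one end. Ncf1 shares 408 exonic bases with Gtf2ird2 on the other strand (104487 against 5998 counts over all libraries), and Hvcn1 shares 1574 with Tctn1 on the other strand (16237 against 2516 counts). Whether counting used strand is not given in the sources used here, so reads of these pairs may not be fully separated.

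RefSeq promoter windows (GRCm38.p6, 250 bases before to 50 after the annotated start, gene strand, 5′ to 3′) were at hand for 3 of the 6 genes, Cybb, Cyba and Ncf1. They are shown because the 3 genes shifted together at 9 months and differ in the letters at their starts. The Cybb window lies at X:9469275-9469574, inside the span that the files give the gene. The Ncf1 window lies at 5:134229576-134229875 and the Cyba window at 8:122432891-122433190. Capitals mark matches to 4 short motifs searched on both strands: GAAA followed after any 2 bases by GAAA (the core of interferon-response elements, here the spaced GAAA pair), GAGGAA (a PU.1-type site), CCAAT and TATAAA.
Cybb: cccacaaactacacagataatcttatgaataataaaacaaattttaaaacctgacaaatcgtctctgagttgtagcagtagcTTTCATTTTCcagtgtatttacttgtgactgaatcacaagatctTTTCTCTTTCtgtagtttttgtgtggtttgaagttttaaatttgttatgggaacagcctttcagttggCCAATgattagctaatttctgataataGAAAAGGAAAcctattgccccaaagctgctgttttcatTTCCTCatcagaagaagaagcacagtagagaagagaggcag
Ncf1: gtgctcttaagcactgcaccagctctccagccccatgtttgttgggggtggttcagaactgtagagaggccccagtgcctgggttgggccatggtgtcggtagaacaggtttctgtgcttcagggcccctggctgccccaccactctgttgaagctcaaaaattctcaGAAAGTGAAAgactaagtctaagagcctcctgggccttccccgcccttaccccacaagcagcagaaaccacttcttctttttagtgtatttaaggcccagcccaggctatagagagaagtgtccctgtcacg
Cyba: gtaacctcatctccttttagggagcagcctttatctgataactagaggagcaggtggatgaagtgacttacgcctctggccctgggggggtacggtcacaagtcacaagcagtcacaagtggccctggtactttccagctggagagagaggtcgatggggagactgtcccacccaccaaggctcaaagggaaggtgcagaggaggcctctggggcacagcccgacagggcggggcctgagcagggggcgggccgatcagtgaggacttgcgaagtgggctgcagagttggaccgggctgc
Cybb held the spaced GAAA pair at 3 places, the first base of each lying at -168, -124 and -29 from the start site, with 1 CCAAT at -56 and 1 GAGGAA on the opposite strand at 9. Ncf1 held 1 such pair, at -82. The Cyba window held none of the 4 and was the richest in G and C, 60.7% against 54.0% in Ncf1 and 35.3% in Cybb. The spaced GAAA pair was present in 3.43% of the 32817 windows of this length, GAGGAA in 28.3%, CCAAT in 37.4% and TATAAA in 13.6%. A match is a run of letters and not a measured site.

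Library totals ran from 11892082 to 25483573 counts in 9 libraries and stood at 2619610 in P5 CD11c+ replicate 2. That library stood apart: its log-scale correlation with the other P5 libraries was 0.80 to 0.84, against 0.97 or more among those, and 23033 genes reached 1 CPM (counts scaled to the library total) in it, against 12762 to 14735 elsewhere. Results that rest on it are given with and without it. The homeostatic microglia markers (24 genes, P2ry12 and Tmem119 among them) were detected in every library, at a sum of 13859 to 30830 CPM at P5, 68266 and 62101 CPM in 9-month CD11c+ cells and 20019 and 17647 CPM in 9-month CD11c- cells. Neutrophil markers (25 genes) made up 15.3% and 20.5% of counts in the 9-month CD11c- libraries, 0.26% and 0.16% in 9-month CD11c+ and 0.037% to 0.396% at P5. The 9-month CD11c- libraries thus held neutrophil transcripts in addition to those of microglia, although labelled as microglia.

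At 9 months 5 of the 6 oxidase genes were lower in CD11c+ than in CD11c- cells. Rac2 was 8.53 times lower, Cybb 6.39, Ncf4 4.49, Cyba 2.88 and Ncf1 2.08 times lower, whereas Hvcn1 lay on the other side and did not pass the test. At P5 none of the 6 passed. Differences are given as the log2 fold change of CD11c+ over CD11c- from edgeR's quasi-likelihood test, with p-values adjusted over all genes tested by Benjamini and Hochberg and called under 0.05. The fit rescales library sizes by trimmed means (TMM), so its folds differ from ratios of the plain CPM values given per library.

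**Figure D1:**
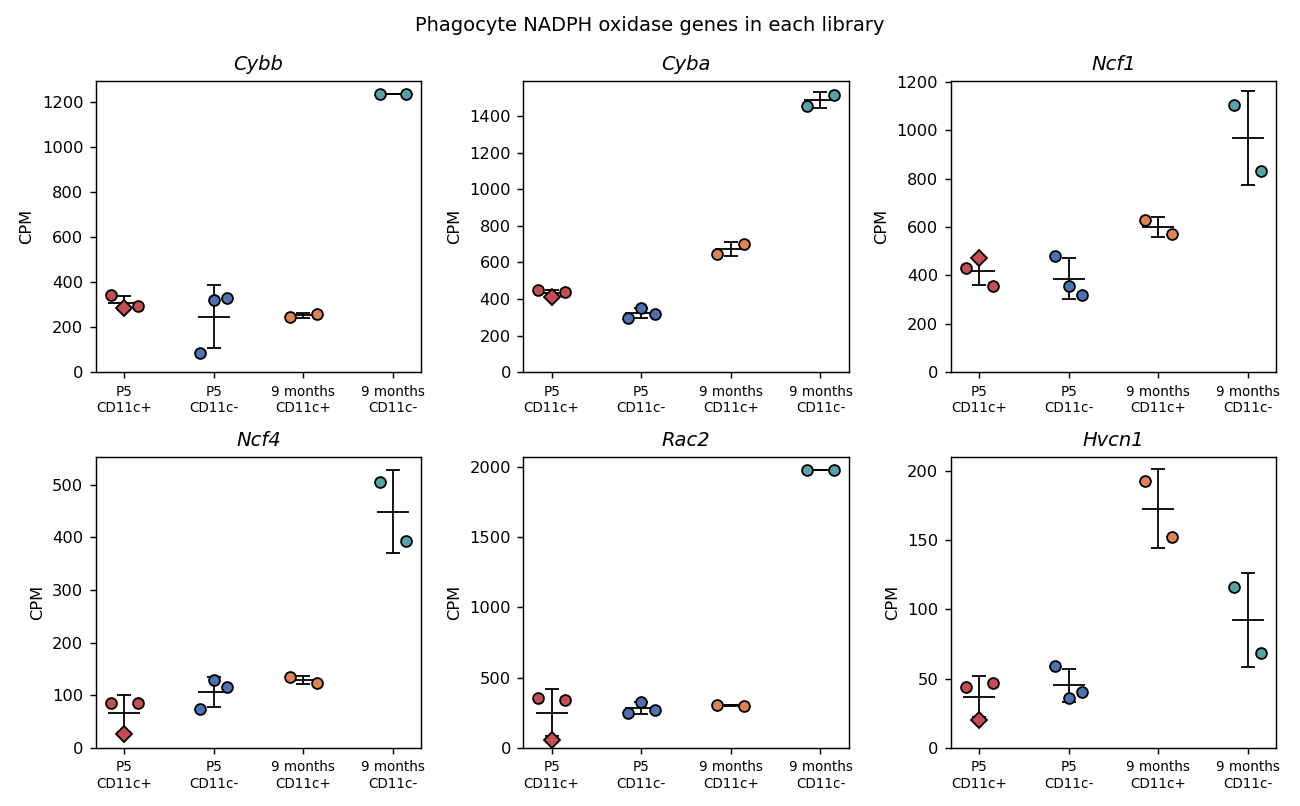
CPM of each oxidase gene in every library, by age and subset; horizontal bars are group means, whiskers are 1 SD, and the diamond is P5 CD11c+ replicate 2. In 5 of the 6 panels both 9-month CD11c- libraries lie above every other library, and in the Hvcn1 panel both 9-month CD11c+ libraries do.

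Among the membrane subunits, Cybb, which encodes the electron-carrying NOX2, stood at 244 and 258 CPM in the 9-month CD11c+ libraries and at 1234 and 1234 CPM in the CD11c- libraries. The subsets did not overlap and replicates lay close together. The log2 fold change was -2.68 (SE 0.15, edgeR adjusted p = 5.3e-05). At P5 the CD11c+ libraries held 342, 282 and 294 CPM of Cybb and the CD11c- libraries 83.1, 322 and 330 CPM. The subsets overlapped, and 1 library, CD11c- replicate 1, lay far below the other 5. The P5 log2 fold change was 0.05 (SE 0.58, edgeR adjusted p = 0.991), and -0.42 without that library.

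The low P5 library differed in its markers too. CD11c- replicate 1 held 0.083% neutrophil and 0.053% monocyte marker counts, below the 0.226% to 0.396% and 0.182% to 0.189% of the other CD11c- libraries at P5. It also held the most homeostatic marker counts of the 6, 30830 CPM. The P5 CD11c+ libraries held 0.037% to 0.043% neutrophil and 0.201% to 0.433% monocyte marker counts, with Cybb at 282 to 342 CPM. The part of these differences in the Cybb value of CD11c- replicate 1 was not tested. Per 1000 counts of homeostatic markers, Cybb gave 2.69 counts there and 15.5 to 20.4 in the other P5 libraries.

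Cyba encodes p22phox, the small partner that stabilises NOX2 and carries the docking site for p47phox. Its 9-month levels were 648 and 700 CPM in CD11c+ and 1457 and 1519 CPM in CD11c- cells. Again no CD11c+ library reached a CD11c- library. The log2 fold change was -1.52 (SE 0.15, edgeR adjusted p = 0.000537). At P5 Cyba stood at 448, 411 and 438 CPM in CD11c+ and at 297, 351 and 315 CPM in CD11c- libraries. Here every CD11c+ library lay above every CD11c- library, as 11.7% of the genes tested did, but the test was not passed (log2 fold change 0.22, SE 0.27, edgeR adjusted p = 0.849). Mitochondrially encoded genes took 7.15% to 28.0% of counts in the P5 CD11c- and 0.771% to 2.79% in the CD11c+ libraries. Without mitochondrial counts in the totals the 2 ranges of Cyba overlapped, 414 to 459 CPM in CD11c+ against 320 to 442 CPM in CD11c- libraries. That overlap rested on CD11c+ replicate 2 (414 CPM). CD11c+ replicates 1 and 3, at 459 and 451 CPM, still lay above every CD11c- library.

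The cytosolic organisers moved the same way as the membrane pair at 9 months. Ncf1 encodes p47phox, whose phosphorylation starts assembly. It stood at 628 and 569 CPM in CD11c+ and at 1103 and 829 CPM in CD11c- libraries. The subsets did not overlap, although the CD11c- replicates lay far apart (SD 194 CPM), and the log2 fold change was -1.06 (SE 0.15, edgeR adjusted p = 0.00275). At P5 the values were 431, 470 and 355 CPM in CD11c+ and 481, 357 and 319 CPM in CD11c- cells. These overlapped fully, with a log2 ratio of -0.05 (SE 0.26, edgeR adjusted p = 0.975).

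Ncf4 encodes p40phox, which binds a phosphoinositide of the phagosome membrane. Its 9-month levels were 134 and 124 CPM in CD11c+ and 505 and 393 CPM in CD11c- cells. The higher subset exceeded the lower in both replicates, with a log2 ratio of -2.17 (SE 0.15, edgeR adjusted p = 0.000131). At P5 it stood at 85.0, 25.2 and 85.4 CPM in CD11c+ and at 74.3, 129 and 115 CPM in CD11c- libraries. The lowest value came from 66 counts in the shallow replicate 2 of CD11c+ (95% Clopper-Pearson interval 19.5 to 32.1 CPM, counting error only). The P5 log2 fold change was -0.93 (SE 0.52, edgeR adjusted p = 0.80), and -0.53 without that library. limma-voom with sample quality weights called Ncf4 lower at P5 (-0.75, adjusted p = 0.032), in a fit that called 21.2% of all genes.

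Rac2, the GTPase of blood cells that switches the assembled oxidase on, showed the largest difference of the 6. It stood at 306 and 297 CPM in the 9-month CD11c+ and at 1976 and 1976 CPM in the CD11c- libraries. Replicates lay close together and the subsets far apart, with a log2 ratio of -3.09 (SE 0.15, edgeR adjusted p = 3.9e-05). Of the genes tested, 5.66% had a lower log2 fold change. At P5 Rac2 stood at 352, 58.0 and 338 CPM in CD11c+ and at 247, 329 and 267 CPM in CD11c- cells. All values but that of CD11c+ replicate 2 lay close together. The P5 log2 fold change was -0.39 (SE 0.63, edgeR adjusted p = 0.898), and turned to 0.11 without that library.

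Rac1 is the widely expressed relative that can serve the oxidase in macrophages. It did not show the difference of Rac2 at 9 months. It stood at 30.1 and 26.1 CPM in CD11c+ and at 26.3 and 37.9 CPM in CD11c- cells, overlapping, with a log2 ratio of -0.59 (SE 0.27, edgeR adjusted p = 0.144). Without CD11c- replicate 1 it passed (-0.90, edgeR adjusted p = 0.026). At P5 Rac1 ranged from 125 to 532 CPM, more than at 9 months in every library, a difference that goes with the kit as well as with age. Rac1 shares 2309 exonic bases with Daglb on the other strand (36663 against 46552 counts over all libraries). Reads of this pair may not be fully separated, which limits the Rac1 values and the ratios that follow. Per kilobase of exon, Rac2 was 0.688 to 1.14 times Rac1 at P5, 15.1 and 16.8 times in 9-month CD11c+ and 111 and 77.2 times in 9-month CD11c- cells.

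Hvcn1, the proton channel, was the exception at 9 months. Its levels were 193 and 153 CPM in CD11c+ and 116 and 68.2 CPM in CD11c- libraries. Both CD11c+ libraries lay above both CD11c- libraries, as 49.4% of all genes tested did. The log2 fold change was 0.55 (SE 0.24) and did not pass (edgeR adjusted p = 0.121). It passed as higher in CD11c+ without CD11c- replicate 1 (0.87, edgeR adjusted p = 0.0295), without CD11c+ replicate 2 (0.76, adjusted p = 0.0131) and with no filter on low counts (0.61, adjusted p = 0.00773). Library sizes set by the homeostatic microglia markers moved the median of all genes from 0.02 to -1.39, and 63% of genes were then called lower, Hvcn1 among them (-0.87, edgeR adjusted p = 0.0135). Its place among all genes hardly moved, with 70.2% of them below it before and 69.8% after. At P5 Hvcn1 was the weakest of the 6, with 43.9, 19.9 and 46.7 CPM in CD11c+ and 58.9, 36.3 and 39.9 CPM in CD11c- cells. These overlapped (log2 fold change -0.45, SE 0.34, edgeR adjusted p = 0.801; -0.14 without CD11c+ replicate 2, which held 52 counts of it).

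**Figure D2:**
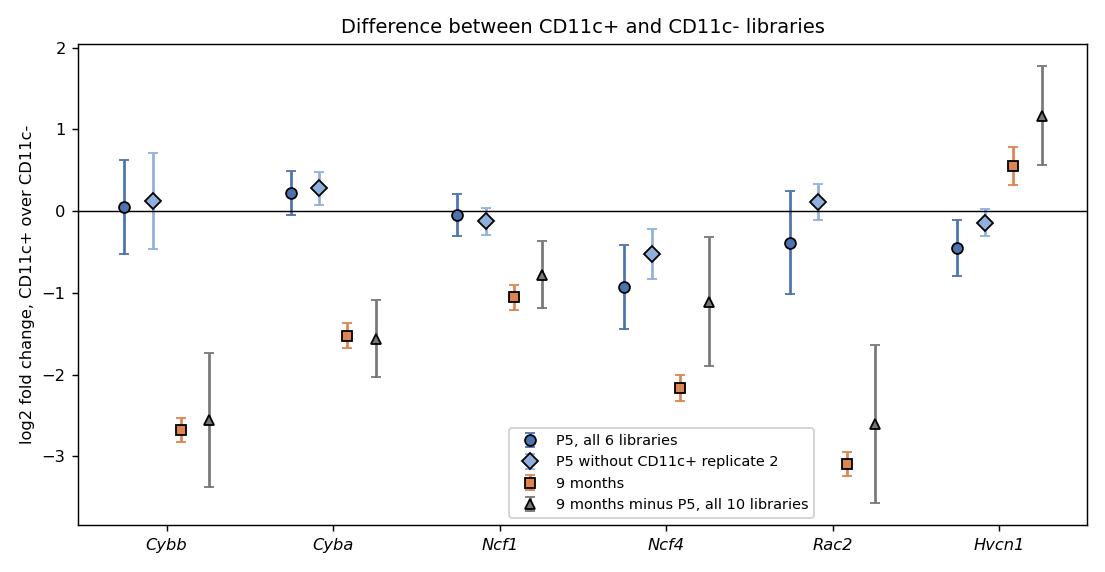
Log2 fold change of CD11c+ over CD11c- cells for each oxidase gene (edgeR), with bars of 1 SE, at P5 with all 6 libraries and without CD11c+ replicate 2, at 9 months, and as the 9-month value minus the P5 value. The 9-month values lie between -3.09 and -1.06 for 5 genes and at 0.55 for Hvcn1. The P5 values lie between -0.93 and 0.22 with all 6 libraries, and between -0.53 and 0.28 without CD11c+ replicate 2.

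Counted together, 5 of the 6 genes were called at 9 months, all lower, where 33% of the 15740 genes tested were called, 18.2% as lower and 14.8% as higher. The CD11c+ libraries lay below the CD11c- libraries without overlap for those 5 genes, as for 23.7% of the genes tested. The median of the 6 was -1.84, beside 0.02 over all genes. At P5 edgeR called 0 of the 6, where it called 0.299% of 15410 genes, 46 in all. At an unadjusted p under 0.05 it had 668 genes higher and 409 lower at P5, none of them a member, and DESeq2 called 0 of the 6 as well. Without P5 CD11c+ replicate 2 the count stayed at 0, where 9.48% of genes were called. In plain CPM Cyba and Rac2 were then higher in both remaining CD11c+ libraries than in all CD11c- libraries, as were 28.8% of genes. Without mitochondrial counts in the totals Cyba kept that separation. Rac2 lost it, at 361 and 347 CPM in those CD11c+ libraries against 266 to 415 CPM in CD11c- libraries.

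The 9-month calls depended on how the spread was estimated. When all 10 libraries shared 1 fit, with the P5 libraries adding to the spread, 0 of the 6 passed (edgeR adjusted p = 0.0513 for Cybb, 0.0556 for Cyba, 0.0576 for Rac2, 0.0964 for Ncf4 and 0.133 for Ncf1), where 5.92% of genes were called. The log2 fold changes in that fit ran from -2.97 for Rac2 to -0.93 for Ncf1. Each of the 5 kept its call and direction when any 1 of the 4 libraries was left out.

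The neutrophil content moved with the 5 lower genes. At 9 months all 25 neutrophil markers were called lower in CD11c+ cells, with a median log2 fold change of -7.00. Of 15 monocyte markers 11 were called lower and 2 higher. Over all genes 18.2% were called lower and 14.8% higher. The monocyte list summed to 1.22% and 1.44% of counts in CD11c- and to 0.112% and 0.102% in CD11c+ cells. F13a1 and Chil3 of the monocyte list also stand in other lists. Eosinophil and basophil markers summed to 1642 and 1746 CPM in CD11c- and to 64.8 and 59.7 CPM in CD11c+ cells. No neutrophil marker was at 0 in any 9-month library. All 24 homeostatic microglia markers were called higher in CD11c+ cells. Of 16 border-associated macrophage markers 15 were called higher and 1 lower, beside the same shares of all genes. The part of these cells in the oxidase result was not tested. In bulk samples fewer cells of a type and less RNA per cell cannot be told apart.

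**Figure D3:**
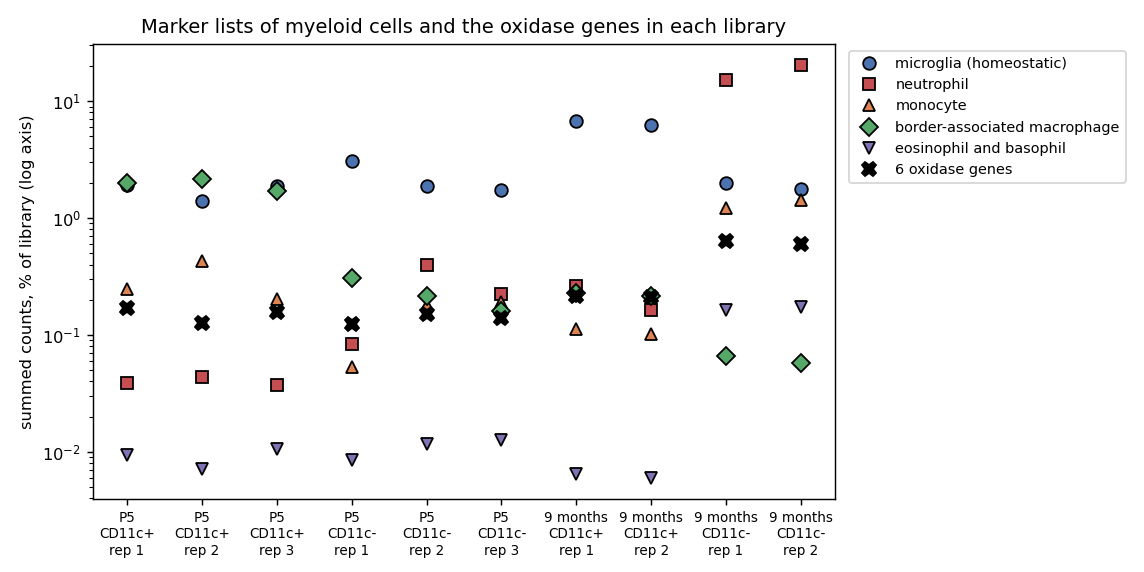
Summed counts of 5 myeloid marker lists and of the 6 oxidase genes, as a percentage of each library (log axis). The oxidase genes and the neutrophil, monocyte and eosinophil lists are highest in the 9-month CD11c- libraries, and the homeostatic list is highest in the 9-month CD11c+ libraries.

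At P5, where the oxidase genes did not pass, the neutrophil list was far smaller. It summed to 0.037% to 0.043% of counts in CD11c+ libraries, where Elane was at 0 in all 3, and to 0.083%, 0.396% and 0.226% in CD11c- libraries. Of the 24 neutrophil markers tested 0 passed in edgeR, where 0.299% of all genes did. Their median log2 fold change was -3.34, beside 0.06 over all genes. Without CD11c+ replicate 2, 16 of 25 were called lower, where 9.48% of all genes were called in either direction. The larger shift at P5 was in border-associated macrophage markers, 17011 to 21484 CPM in CD11c+ against 1616 to 3084 CPM in CD11c- cells. Of these markers 8 of 16 were called higher, and 15 of 16 without CD11c+ replicate 2, beside the same shares of all genes. Cyba was higher in all CD11c+ libraries in plain CPM, but did not pass. Without mitochondrial counts in the totals its ranges overlapped, through CD11c+ replicate 2 only. The part of the border-associated macrophage list in its values was not tested.

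Set against the homeostatic markers, the 9-month gap widened. Cybb gave 3.57 and 4.16 counts per 1000 marker counts in CD11c+ and 61.6 and 69.9 in CD11c- cells. Rac2 gave 4.48 and 4.78 against 98.7 and 112. With library sizes set by these markers, all 6 genes were called lower, Hvcn1 included, but 63% of all genes were, and the median over all genes was -1.39.

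The make-up of the 6 transcripts was compared per kilobase of exon, so that genes of different length can be set beside each other. Cyba was the most abundant in every library, at 49.2% to 64.9% of the summed CPM per kilobase. Rac2 came second in the 9-month CD11c- libraries, at 22.8% and 23.5%, and fell to 9.52% and 9.09% of the sum in CD11c+ cells. Hvcn1 made up 5.12% and 3.98% in 9-month CD11c+ and 1.15% and 0.692% in CD11c- cells. The membrane partners shifted against each other too: Cyba over Cybb was 14.9 and 15.1 in 9-month CD11c+ and 6.60 and 6.88 in CD11c- cells. At P5 that ratio was 5.34 to 8.32 in 5 libraries and 19.97 in CD11c- replicate 1, where Cybb was low. Ncf1 over Ncf4 was 2.58 and 2.54 in 9-month CD11c+ and 1.21 and 1.16 in CD11c- cells. In P5 CD11c+ replicate 2 it was 10.3, against 1.53 to 3.57 in the other P5 libraries.

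**Figure D4:**
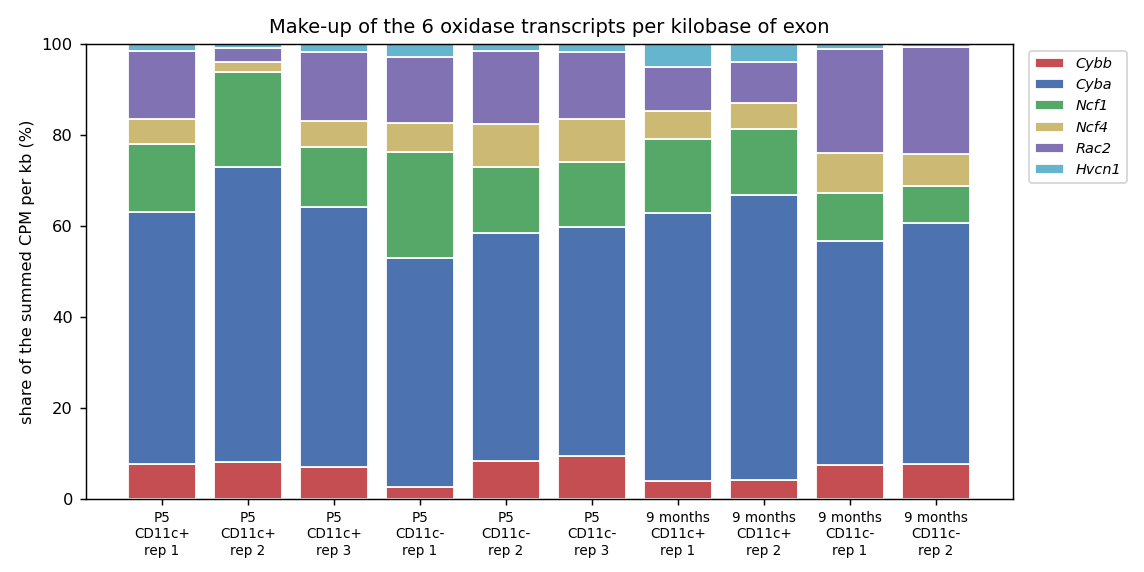
Share of each gene in the summed CPM per kilobase of exon of the 6 oxidase genes, 1 bar per library. Cyba takes the largest share throughout, Rac2 is widest in the 9-month CD11c- libraries, and Hvcn1 is widest in the 9-month CD11c+ libraries.

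The sum of the 6 in plain CPM was 1241 to 1702 at P5, 2153 and 2101 in 9-month CD11c+ cells and 6390 and 6019 in 9-month CD11c- cells. Over the 4 groups, 9-month CD11c- cells came first for Cybb, Cyba, Ncf1, Ncf4 and Rac2, with no library of another group reaching them. Below that, Ncf4 and Rac2 libraries of the other 3 groups overlapped between neighbours in the order, as did Cybb between 9-month CD11c+ and P5 CD11c- cells and Ncf1 between the 2 P5 groups. Hvcn1 had a different order, 9-month CD11c+ (mean 173 CPM, SD 28.5, n = 2), 9-month CD11c- (92.2, SD 34.0, n = 2), P5 CD11c- (45.0, SD 12.1, n = 3) and P5 CD11c+ (36.8, SD 14.8, n = 3). Its 2 P5 groups overlapped. These orders span 2 kits and were not tested across ages.

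Whether the gap between CD11c+ and CD11c- cells differed between ages was tested as a contrast over all 10 libraries. A kit effect common to both subsets cancels in it, and one that differs between subsets does not. The contrast was -2.61 for Rac2 (SE 0.97, edgeR adjusted p = 0.222), -2.55 for Cybb (SE 0.82, adjusted p = 0.163) and -1.56 for Cyba (SE 0.47, adjusted p = 0.14). It was -1.11 for Ncf4 (adjusted p = 0.533), -0.78 for Ncf1 (adjusted p = 0.397) and 1.17 for Hvcn1 (adjusted p = 0.39). By edgeR, 0 of the 6 passed, where 1.86% of 19555 genes did, so the 9-month and P5 differences were not shown to differ. At an unadjusted p under 0.05 edgeR gave 3 of the 6, Cybb, Cyba and Rac2, all with the larger drop at 9 months, and over all 19555 genes it gave 1833 in that direction and 1318 in the other.

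That count turned on 1 library. Without P5 CD11c+ replicate 2, 4 of the 6 passed, all with the larger drop at 9 months: Rac2 (-3.10, edgeR adjusted p = 0.000387), Cybb (-2.71, adjusted p = 0.0294), Cyba (-1.70, adjusted p = 0.00475) and Ncf4 (-1.53, adjusted p = 0.0229). Ncf1 (-0.81, adjusted p = 0.0541) and Hvcn1 (0.82, adjusted p = 0.0804) did not. In that fit 19.1% of genes were called, 10.3% in this direction. With all libraries, DESeq2 called Cybb, Cyba, Ncf1 and Rac2, where it called 16% of genes, and limma-voom called all but Hvcn1, where it called 20% of genes. edgeR with RLE size factors called Cyba only, where it called 3.19% of genes, and scaling to homeostatic markers called all but Hvcn1, where 37% of genes were called in that direction.

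The wider pathway at 9 months was mixed. The neutrophil and homeostatic marker sums given above differed between the same libraries, and their part in each list that follows was not tested. Of 31 genes whose proteins complete, bind, phosphorylate or trigger the oxidase, 7 were called higher and 10 lower in CD11c+ cells, with a median of -0.08. Over all genes, 14.8% were called higher and 18.2% lower, with a median of 0.02. The lowest were formyl peptide receptors, which sense bacterial peptides and trigger the burst. Fpr1 stood at 12.95 and 8.55 CPM in CD11c+ and at 445 and 413 CPM in CD11c- cells (log2 fold change -5.69, SE 0.26, edgeR adjusted p = 3.3e-05), and Fpr2 at 3.73 and 2.14 against 150 and 162 CPM (-6.10). Arhgdib, which holds Rac proteins in the cytosol, fell with Rac2, from 3608 and 4183 CPM in CD11c- to 603 and 596 CPM in CD11c+ cells (-3.09, edgeR adjusted p = 6.2e-05), and Coro1a, an actin-binding protein, was lower as well (-1.503). Cybc1, the chaperone that NOX2 and p22phox need to reach the membrane, was called higher in CD11c+ cells, 218 against 106 CPM on average (0.68, edgeR adjusted p = 0.0236). It was chosen after its value was seen, as were Vav1, an exchange factor for Rac GTPases (0.89, adjusted p = 0.00457), and Itgb2, the integrin beta chain of phagocytes (-0.60, adjusted p = 0.0301). With homeostatic scaling, under which 63% of all genes were lower and their median was -1.39, 0 of the 31 were higher and 30 lower, with a median of -1.495.

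The next list held enzymes that remove superoxide and peroxide, and their regulators. Of 25 tested, 12 were called lower and 3 higher, with a median of -0.50, beside 18.2% lower and 14.8% higher over all genes. Glutathione reductase (Gsr) stood at 14.0 and 11.7 CPM in CD11c+ and at 542 and 608 CPM in CD11c- cells (log2 fold change -5.87, SE 0.22, edgeR adjusted p = 2.7e-05). The peroxiredoxins Prdx5 (-3.44) and Prdx6 (-2.88) and the glutaredoxin Glrx (-3.83) were lower as well. With homeostatic scaling 22 of the 25 were lower and 0 higher, with a median of -1.90, beside 63% lower and a median of -1.39 over all genes.

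Channels, exchangers and pumps that move charge or protons across the plasma or phagosome membrane form the group to which Hvcn1 is closest in role. Of 15, 9 were called higher and 2 lower, with a median of 0.90, beside 14.8% higher, 18.2% lower and a median of 0.02 over all genes. The sodium-proton exchanger Slc9a9 stood at 344 and 302 CPM in CD11c+ and at 84.8 and 65.3 CPM in CD11c- cells (1.74, SE 0.16, edgeR adjusted p = 0.00044). The chloride-proton exchangers Clcn7 (1.39), Clcn5 (1.47) and Clcn3 (1.27) were also higher. With homeostatic scaling 0 of the 15 were higher and 6 lower, and Slc9a9 was at 0.32 without passing. The list's median was then -0.52, beside a median of -1.39 and 63% lower over all genes.

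Of the other NADPH oxidases and their partners, 2 of 9 passed the filter on low counts. Duoxa1, the maturation factor of DUOX1, was called higher at 5.57 and 7.48 against 1.70 and 1.81 CPM (1.51, edgeR adjusted p = 0.0286), but not without CD11c+ replicate 2 (adjusted p = 0.209). Among other sources of radicals, 2 of 5 were lower, beside 18.2% of all genes: Xdh (38.3 and 22.3 against 244 and 200 CPM, -3.24) and Nos2 (0.078 and 0.085 against 1.70 and 0.859 CPM, edgeR adjusted p = 0.0161). Nos2 lost its call without either CD11c+ library or without CD11c- replicate 1 (adjusted p = 0.16, 0.128 and 0.0505).

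Of 10 measured transcription factors known from other work to act at oxidase promoters, 3 were lower and 1 higher, or 4 of 10 called, beside 33% of all genes. Cebpe, a factor of granulocyte maturation, stood at 0.903 and 0.598 CPM in CD11c+ and at 73.2 and 43.7 CPM in CD11c- cells (log2 fold change -6.62, SE 0.35, edgeR adjusted p = 5e-05). Spi1, which encodes PU.1, stood at 258 and 408 against 643 and 454 CPM (-1.09, edgeR adjusted p = 0.0131), and lost its call without CD11c- replicate 1 (adjusted p = 0.0557). Cebpb was lower at low levels, 2.43 and 1.88 against 5.26 and 7.41 CPM (-1.94). Irf8 was higher, 811 and 673 against 341 and 194 CPM (1.12, edgeR adjusted p = 0.0113), and at -0.30 without passing under homeostatic scaling, above the median of -1.39. At P5 edgeR called 0 genes in each of these lists, where it called 0.299% of all genes. Without P5 CD11c+ replicate 2 it called 9.48% of all genes. It then called 1 higher and 2 lower of the 31 partners and regulators, and 4 higher of the 25 removal genes. Of the 15 channels, exchangers and pumps 3 were higher, and of the 10 transcription factors 1 was lower. Among the other oxidases and the other sources of radicals 0 were called.

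The genes whose pattern was most like each member's were found by correlation across libraries, on log2 CPM plus 1 centred within each age, over the 9 libraries without P5 CD11c+ replicate 2. These r values describe likeness only, since all genes share the libraries and the same 9-month contrast. For Cybb they were Irak3 (r = 0.994), Plbd1 (0.991) and Cdc42ep2 (0.990), and for Ncf4 Atp8b4 (0.998), Glipr2 (0.997) and Mirt1 (0.995). For Cyba they were Gapdh (0.996), Aldoa (0.994) and Eef1akmt1 (0.993), for Ncf1 Lig1 (0.997), Mcm7 (0.992) and Cdca2 (0.991), and for Rac2 Dhrs7 (0.998), 2310001H17Rik (0.997) and Dstn (0.996). With the library put back, r was 0.989 for Irak3, 0.683 for Gapdh, 0.983 for Lig1, 0.956 for Atp8b4 and 0.624 for Dhrs7. Hvcn1 was most like Zfp638 (0.977), Tubb2b (0.975) and Myo18a (0.971), and its r with the other 5 members ran from -0.945 with Cyba to -0.674 with Ncf1. Among those 5, r ran from 0.625 (Cybb and Ncf1) to 0.971 (Cyba and Rac2). With all 10 libraries Hvcn1 ranged from -0.400 with Cybb to 0.279 with Ncf4.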

How the data were processed

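Raw read counts per gene were measured in 10 libraries in 4 groups and used as the authors deposited them, 1 table per library with gene length. Per the submitters' processing notes, Trimmomatic 0.36, STAR 2.5.2b and Subread 1.5.2 were used; build, strand and treatment of multiply mapped reads are not given in the sources used here. Each age was fitted separately with edgeR 4.0.16 in R 4.3.3 (filterByExpr, TMM, quasi-likelihood test, Benjamini-Hochberg, threshold 0.05), and the difference between ages over all 10 libraries. CPM used total counts, and CPM per kilobase the deposited exonic length. For the 6 genes the upper 95% Clopper-Pearson bound exceeded the value by at most 31.1% in P5 CD11c+ replicate 2 and 9.41% in the other 9 libraries (counting error only). No library pair agreed within sampling noise. Members and lists were chosen with earlier results of these data known. Named genes were the 6 members, Rac1, up to 4 genes with the smallest p per pathway list and comparison, and the 3 most alike per member (mean log2 CPM of at least 3). Alternatives were RLE factors, filters, DESeq2 1.42.0, limma 3.58.1, homeostatic scaling, mitochondrial genes left out, replicate block, 1 shared fit and leaving out each library. The fits were tested on simulated data. For the comparison between ages the simulation was set to less spread than these libraries showed. It therefore cannot tell how many differences were missed there. Some named genes and 1 list are not reported here.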

Additional observations from a re-analysis of the deposited data

Results flagged for a closer look

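The CD11c+ to CD11c- log2 fold change differed between ages, by the test of that difference over all 10 libraries (edgeR, adjusted over all genes), for 7 of the 103 genes tested from the pathway lists and for none of the 6 oxidase genes, beside 1.86% of all genes. The difference, 9 months minus P5, was -6.03 for Fpr1, -5.32 for Fpr2, -4.58 for Gsr, -2.93 for Prdx5, -3.96 for Txn1 and -3.87 for Cebpe, and 1.90 for Rhoh, a GTPase of blood cells. Txn1, a thioredoxin, stood at 38.3 and 43.4 CPM in 9-month CD11c+ and at 472 and 575 CPM in 9-month CD11c- cells. None of the 7 kept its call in every fit that left out 1 library, and each fit without 1 of the 9-month libraries called 0 genes in all. The differences kept their direction in all of those fits, from -6.40 to -5.52 for Fpr1, -5.64 to -4.82 for Fpr2, -4.84 to -4.16 for Gsr, -3.18 to -2.58 for Prdx5, -4.18 to -3.33 for Txn1, -4.06 to -3.52 for Cebpe and 1.81 to 2.16 for Rhoh. With library sizes set by homeostatic microglia markers Rhoh was at -0.31, where the median of all genes was -2.16.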

How the results depend on the processing

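At 9 months Cybb, Cyba, Ncf1, Ncf4 and Rac2 kept direction and call in 12 of 13 alternatives each, and the count of oxidase genes ran from 5 to 6 with 1 library left out. It fell to 0 in the fit of all 10 libraries, where 1158 genes in all were called in place of 5202. At P5 the count was 0 except for 1 by limma-voom, and 0 in each fit with 1 library left out. Between ages it was 0, but 1 with RLE size factors, 4 by DESeq2, 5 by limma-voom, 5 with homeostatic scaling and 0 to 4 with 1 library left out. Over all genes at P5 46 calls became 513 by DESeq2 (364 higher, 149 lower), 3271 by limma-voom (1371 higher, 1900 lower), 103 with homeostatic scaling, 138 in the fit of all libraries and 0 to 1501 with 1 library left out. Over all genes between ages 364 became 623 with RLE, 693 with no filter, 664 with the stricter filter, 2440 by DESeq2, 3917 by limma-voom, 7248 with homeostatic scaling and 0 to 3496 with 1 library left out. Homeostatic scaling called 9983 genes at 9 months (72 higher, 9911 lower, against 2333 and 2869) and moved the median of all genes to -1.39, to 0.56 at P5 and to -2.16 between ages. With that shift of all genes the sign changed for Hvcn1 (-0.87), Clcn3 (-0.15), Clcn7 (-0.034), Irf8 (-0.30) and Rhoh (-0.59) at 9 months and for Hvcn1 (-0.89) and Rhoh (-0.31) between ages, all still above the median, and for Ncf1 (0.50), Hvcn1 (0.014) and Rac1 (0.19) at P5, all below it. Cybc1 (-0.74, edgeR adjusted p = 0.00843) and Vav1 (-0.52, edgeR adjusted p = 0.0222) went from called higher to called lower at 9 months, also above the median. Values that were not called also changed sign: at P5 Cybb with no filter (-0.0010), limma-voom (-0.13), all libraries (-0.0031), without CD11c+ replicate 1 (-0.09) or CD11c- replicate 1 (-0.42); Rac2 (0.11) and Rac1 (0.24) without CD11c+ replicate 2; Rac1 by limma-voom (0.093). Between ages Rac1 changed sign with mitochondrial genes left out (0.070), without P5 CD11c+ replicate 3 (0.05) and without 9-month CD11c- replicate 2 (0.29). With each library left out in turn, P5 values ran from -0.42 to 0.40 for Cybb, -0.70 to 0.11 for Rac2 and -0.52 to 0.24 for Rac1, and Rac1 between ages from -0.73 to 0.29. The cause was not tested. The labels number the replicates but do not say whether equal numbers pair the libraries. The correlation of same-numbered deviations was 0.52, 0.03 and -0.50 at P5 and 0.05 at 9 months. Between differently numbered P5 libraries it ran from -0.53 to 0.54. These values cannot decide on pairing, since with 2 libraries per group the 9-month deviations only mirror each other. With the number as a replicate block 0 of 6 oxidase genes and 0 genes in all were called at P5 and between ages, and 6 oxidase genes and 5436 genes at 9 months, Hvcn1 passed as higher at 9 months (0.57, edgeR adjusted p = 0.0206), and Rac1 between ages became 0.064.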
